A study of Bos indicus with 12 samples.

Results

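Messenger RNA of 76 genes of translation was measured in the blood of 12 cows. They are the genes whose symbol names a translation initiation factor or an aminoacyl-tRNA synthetase. Members were chosen by symbol alone: every EIF1 to EIF6 gene except the eIF2 kinases, and every synthetase whose symbol is 1 amino acid letter, ARS and a final 1 or 2. They comprise 44 initiation factors, 17 synthetases whose names end in 1 and 15 whose names end in 2, of 26229 gene identifiers in the table. Synthetases ending in 1 act in the cytosol and those ending in 2 in mitochondria, while GARS1 and KARS1 serve both and were counted as cytosolic. The gene EIF4E1B held 3 reads in all 12 libraries together and was not tested, which left 75 members among 15421 genes tested. EPRS1, EARS2, IARS2 and EIF4H had a symbol in the name table but no identifier among the counts, so they were not analysed here. The synthetase genes FARSA, FARSB and TARS3 fall outside the naming rule.

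The cows were female Bos indicus of the Gir and Shweta Kapila breeds, in the second or the third lactation. Milk records divided each breed into 3 high-yielding and 3 low-yielding animals, so each group is 3 cows of 1 breed and 1 yield class. Total RNA was depleted of ribosomal RNA and sequenced. The labels used here give no herd, age or sampling day, and these cannot be told apart from breed or yield.

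Initiation factors bring the small ribosomal subunit and the initiator tRNA to the start codon of an mRNA. eIF2 carries the initiator tRNA and is recharged by eIF2B, eIF3 is the large scaffold on the small subunit, and the eIF4 group binds the cap and unwinds the leader. Aminoacyl-tRNA synthetases load each tRNA with its amino acid, with separate enzymes for most amino acids in the cytosol and in mitochondria. In blood leukocytes this machinery is switched up when lymphocytes are activated, and mTORC1 signalling controls it through the eIF4E-binding proteins.

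Library totals lay between 14.2 M and 27.2 M counts (M, 1000000), and members took 1.19% to 1.37% of them. The labels name peripheral blood mononuclear cells as well as a whole-blood RNA kit. All 15 T cell markers were measured, and their summed level was 3194 to 6555 CPM (counts per 1000000 counts, after scaling). Of 14 neutrophil markers, 8 were in the table and all 8 passed the filter on low counts, at a summed 1297 to 4243 CPM. No measured marker of either list was at 0. In bulk RNA, fewer cells of a type and less RNA per cell cannot be told apart.

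Across the 12 libraries the members differed far more among Shweta Kapila than among Gir cows. The median SD of log2 CPM within a group, over the 75 members, was 0.137 in high-yielding and 0.148 in low-yielding Gir cows. It was 0.339 in high-yielding and 0.386 in low-yielding Shweta Kapila cows. All tested genes showed the same order, with 0.262, 0.272, 0.484 and 0.547, so the order is not particular to the members. Low-yielding Shweta Kapila cow 1 held the highest of the 12 values for 27 members and the lowest for 15. High-yielding Shweta Kapila cow 1 held the highest for 19 and the lowest for 11. No Gir cow held the highest value for more than 6 members.

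**Figure D1:**
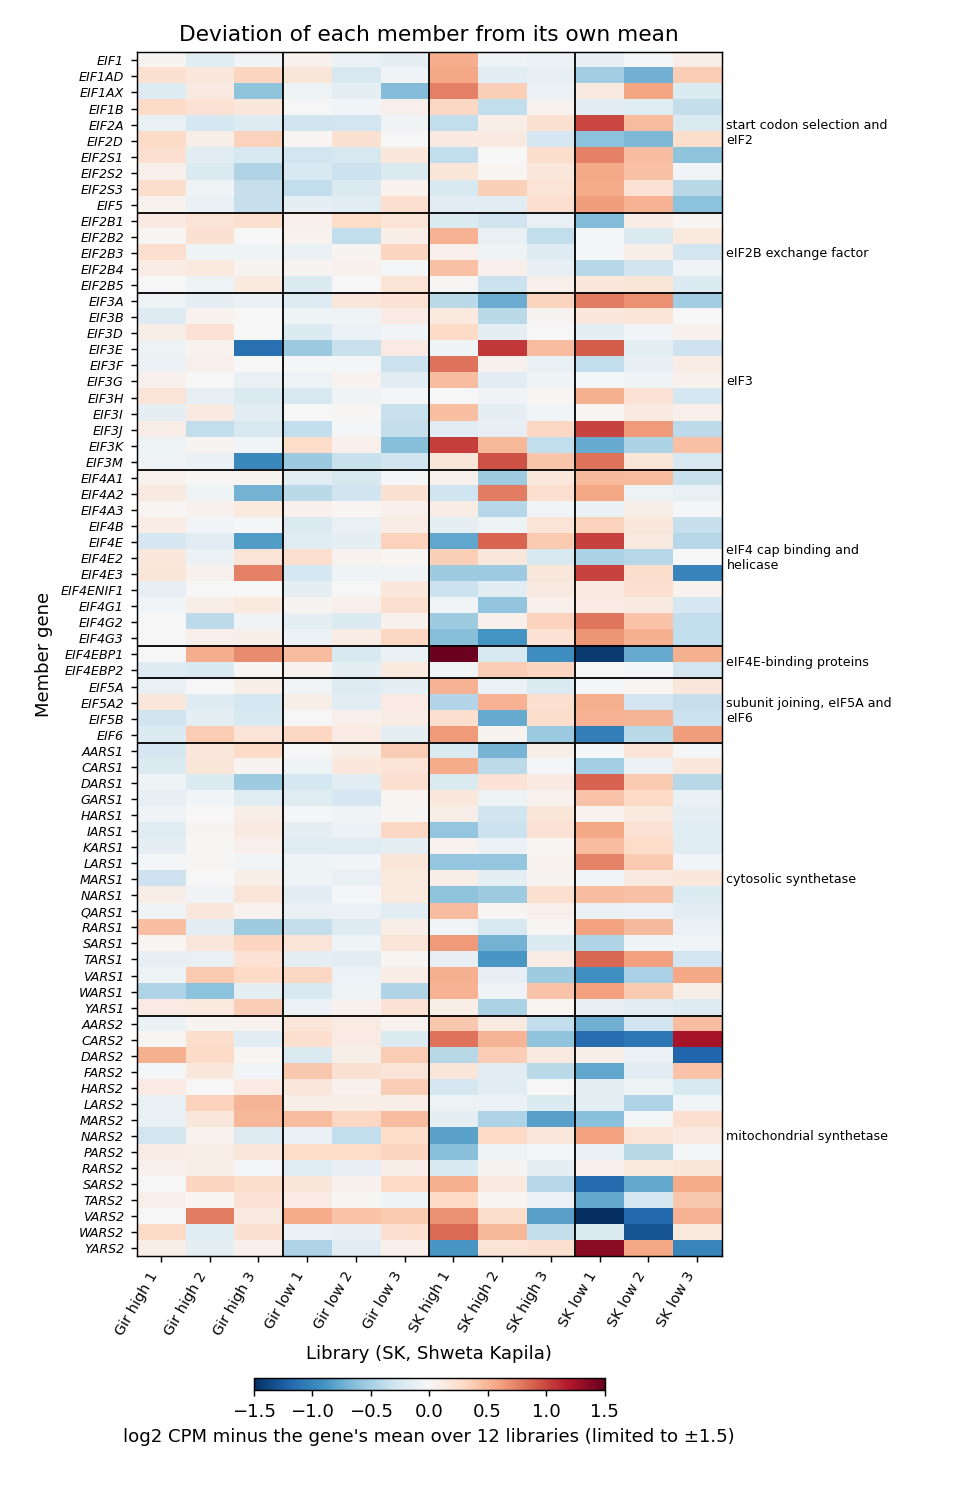
Each row is 1 of the 75 tested members, each column 1 cow, and the colour is log2 CPM minus the gene's own mean over the 12 libraries, limited to 1.5 in both directions. The 6 Gir columns are pale, and the strongest colours stand in Shweta Kapila cows.

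The steadiest members were synthetases of both compartments. HARS1, the cytosolic histidine enzyme, lay between 30.7 and 42.7 CPM, a 1.39-fold range. RARS2, the mitochondrial arginine enzyme, and MARS1, the cytosolic methionine enzyme, spanned 1.34-fold and 1.39-fold. At the other end stood EIF4EBP1, the repressor that holds eIF4E away from its scaffold until mTORC1 releases it. EIF4EBP1 measured 25.3, 37.1 and 41.5 CPM in the high-yielding and 35.0, 21.7 and 23.8 CPM in the low-yielding Gir cows. In Shweta Kapila cows it measured 70.7, 21.5 and 13.4 CPM at high yield and 9.38, 15.04 and 36.7 CPM at low yield. Its 7.54-fold range came from Shweta Kapila cows, whose yield classes overlapped. VARS2, the mitochondrial valine enzyme, spanned 5.78-fold, from 5.78 to 33.4 CPM, and the mitochondrial cysteine enzyme CARS2 spanned 5.20-fold.

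Breed gave the lowest member p-values of any comparison. WARS1, the cytosolic tryptophan enzyme, which interferon-gamma is known to induce, measured 617, 556 and 767 CPM in high-yielding and 728, 811 and 624 CPM in low-yielding Gir cows. It measured 1227, 823 and 1144 CPM in high-yielding and 1301, 1115 and 904 CPM in low-yielding Shweta Kapila cows. Every Gir cow was below every Shweta Kapila cow, the nearest values being 811 and 823 CPM. The log2 difference of Gir minus Shweta Kapila was −0.67 ± 0.17 (SE), with an unadjusted p of 0.00169 and a Benjamini-Hochberg adjusted p of 0.278 in edgeR's quasi-likelihood test. It therefore did not pass the threshold of 0.05 over all genes.

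No member passed that threshold for breed in edgeR, and neither did any other gene (0%). DESeq2 called 1 member (1.33%), WARS1, at an adjusted p of 0.0205, and 1.3% of all genes. A limma-voom fit that weights libraries called 13 members (17.3%), close to its 16.8% of all genes. Over all alternatives the adjusted p of WARS1 ran from 0.0119 to 0.570. At an unadjusted p under 0.05, edgeR found 9 of the 75 members (12%), beside 9.6% of all genes. Of these, 2 were higher and 7 lower in Gir cows, where 3.8% and 5.8% of all genes were. WARS1, PARS2 and HARS2 did not overlap between the breeds, which is 4% of the members, beside 0.603% of all genes.

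**Figure D2:**
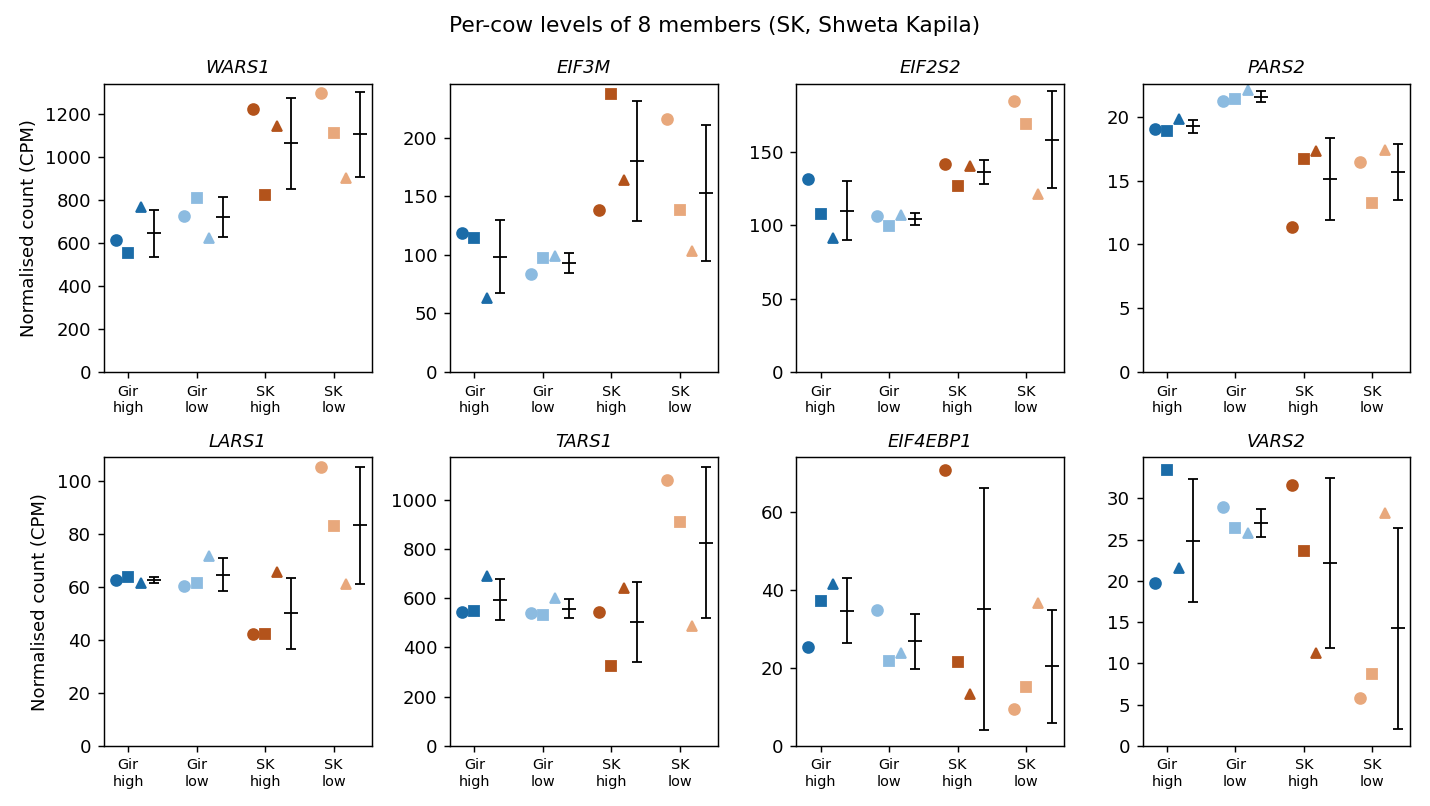
Per-cow CPM of 8 members by group, with point shape for cow number and the black bar for mean ± SD of 3 cows. WARS1 and PARS2 separate the breeds, whereas LARS1, TARS1, EIF4EBP1 and VARS2 scatter mainly in Shweta Kapila cows.

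The 11 measured eIF3 subunits all had a lower fitted level in Gir than in Shweta Kapila cows, with a median log2 difference of −0.16 beside −0.043 over all genes. For 8 of them the unadjusted p was above 0.05. Without high-yielding Shweta Kapila cow 1, 7 of the 11 were lower and the median was −0.058, and without the 3 libraries of over 22 M counts 7 of the 11 were lower, with a median of −0.14. EIF3M, a peripheral subunit, measured 119, 114 and 62.9 CPM in high-yielding and 83.5, 97.3 and 99.3 CPM in low-yielding Gir cows. It measured 139, 238 and 164 CPM in high-yielding and 216, 139 and 104 CPM in low-yielding Shweta Kapila cows. The breeds overlapped only in the span between 104 and 119 CPM. Its log2 difference was −0.79 ± 0.23 (SE), with an adjusted p of 0.316 in edgeR. EIF3E, the subunit known as INT6, differed by −0.67 ± 0.29 (SE), and EIF3J, which binds near the decoding site, by −0.48 ± 0.22 (SE). EIF3D, the subunit that can bind the cap, stood at the other end of the complex with −0.019 ± 0.13 (SE).

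Subunits of 1 complex did not keep a constant proportion across cows. The ratio of EIF3A, the largest eIF3 subunit, to EIF3K, a small non-core subunit, was 2.14 to 2.43 in the high-yielding and 1.77 to 4.42 in the low-yielding Gir cows. In Shweta Kapila cows it was 0.899, 1.03 and 3.97 at high yield and 7.05, 5.42 and 1.25 at low yield. The ratio of EIF3E to EIF3K ran from 0.848 to 5.79 over the 12 cows. Such ratios hold the unequal length of the transcripts, which is the same in every cow, so only their change between cows can be read.

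Among the factors that find the start codon, 7 of 10 were lower in Gir cows, with a median log2 difference of −0.21. EIF2S2, the beta subunit of eIF2, measured 131, 107 and 91.0 CPM in high-yielding and 106, 99.2 and 107 CPM in low-yielding Gir cows. It measured 142, 127 and 140 CPM in high-yielding and 184, 169 and 121 CPM in low-yielding Shweta Kapila cows. A single Gir cow reached into the Shweta Kapila range, and the log2 difference was −0.46 ± 0.15 (SE) with an adjusted p of 0.368 in edgeR. EIF1AX, which keeps the scanning ribosome open, differed by −0.53 ± 0.22 (SE), and EIF2A, an alternative initiator tRNA carrier, by −0.46 ± 0.20 (SE). EIF2S1, the eIF2 subunit that stress kinases phosphorylate, differed by −0.22 ± 0.23 (SE). The 5 eIF2B subunits leaned the other way, with a median of 0.12 and 4 of 5 higher in Gir cows, none at an unadjusted p under 0.05.

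Mitochondrial synthetases had the opposite lean to eIF3. Of 15, 11 were higher in Gir cows, with a median log2 difference of 0.25, whereas 6 of 17 cytosolic synthetases were higher, with a median of −0.021. PARS2, the mitochondrial proline enzyme, measured 19.0, 18.9 and 19.8 CPM in high-yielding and 21.2, 21.4 and 22.1 CPM in low-yielding Gir cows. It measured 11.4, 16.7 and 17.3 CPM in high-yielding and 16.5, 13.2 and 17.4 CPM in low-yielding Shweta Kapila cows. The breeds did not overlap, and the log2 difference was 0.40 ± 0.16 (SE) with an adjusted p of 0.474 in edgeR. HARS2, the mitochondrial histidine enzyme, lay between 19.5 and 24.9 CPM in Gir and between 16.3 and 19.4 CPM in Shweta Kapila cows. MARS2, for methionine, differed by 0.59 ± 0.24 (SE) and LARS2, for leucine, by 0.35 ± 0.16 (SE). As a class count and median, the lean depended on 3 libraries of over 22 M counts. Without these Shweta Kapila libraries (high-yielding cow 3, low-yielding cows 1 and 2) 6 of 15 mitochondrial synthetases were higher, their median was −0.056 and that of the initiation factors −0.0004. That fit left only low-yielding cow 3 in its group. PARS2, MARS2 and LARS2 stayed higher in Gir cows in every alternative. Apart from single libraries left out, they ran from 0.39 to 0.47, 0.35 to 0.61 and 0.26 to 0.46.

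**Figure D3:**
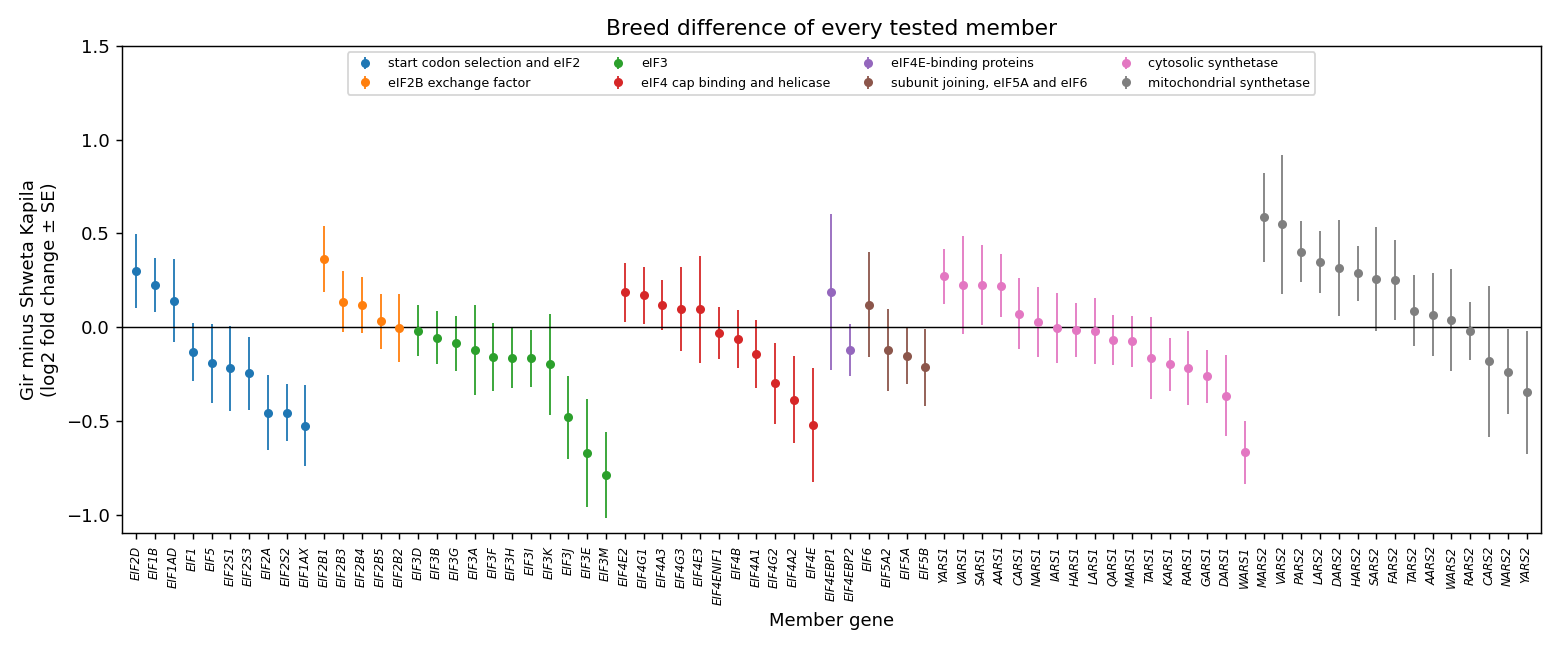
Log2 difference of Gir minus Shweta Kapila for each tested member with its SE, coloured by role. All 11 eIF3 points lie below 0, and 11 of 15 mitochondrial synthetases lie above it.

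Other libraries also moved the breed counts. Leaving out low-yielding Shweta Kapila cow 3 raised the members at an unadjusted p under 0.05 from 9 to 24 (32%), and the share of all genes rose as well, from 9.6% to 26.6%. WARS1 and EIF3M (2.67% of the members) then passed the threshold, with adjusted p of 0.0381 and 0.0427 in edgeR, as did 2.82% of all genes. Leaving out high-yielding Gir cow 3 lowered the 9 to 3 (4%, beside 6.55% of all genes). Leaving out low-yielding Gir cow 1, low-yielding Gir cow 3 or low-yielding Shweta Kapila cow 1 lowered it to 5 each (6.67%, beside 6.96% to 7.53% of all genes). Summed cytotoxic markers were 210 to 467 CPM in Gir cows, 550 to 1514 CPM in high-yielding and 296 to 350 CPM in low-yielding Shweta Kapila cows. Summed B cell markers were 1125 to 2301 CPM in Gir cows, 790 to 921 CPM in high-yielding and 789 to 3199 CPM in low-yielding Shweta Kapila cows. Of the measured markers, 6 of 6 for monocytes were higher in Gir cows, 2 of them at an unadjusted p under 0.05, with a median log2 difference of 0.58. For T cells 11 of 15 were lower, 6 of them at an unadjusted p under 0.05, with a median of −0.25, and all 5 cytotoxic markers were lower, 3 of them at that p. For neutrophils 7 of 8 and for B cells 9 of 9 were higher, none of them at that p. The part of cell makeup in the breed differences was not tested.

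Between yield classes of Shweta Kapila cows, the lowest p-values belonged to lower members at high yield. LARS1, the cytosolic leucine enzyme and a known leucine sensor for mTORC1, measured 42.1, 42.2 and 65.4 CPM at high yield. At low yield it measured 105, 82.8 and 61.1 CPM. The classes overlapped in 1 cow each, and the Gir cows lay at 60.1 to 71.6 CPM. The log2 difference of high minus low yield was −0.735 ± 0.25 (SE), with an unadjusted p of 0.0116 and an adjusted p of 0.655 in edgeR. TARS1, the cytosolic threonine enzyme, measured 545, 322 and 640 CPM at high and 1080, 909 and 485 CPM at low yield, a difference of −0.71 ± 0.31 (SE). EIF4G3, a scaffold that joins the cap to the ribosome, measured 82.5, 68.6 and 149 CPM at high and 203, 186 and 99.1 CPM at low yield, a difference of −0.70 ± 0.32 (SE). In all 3 genes low-yielding cow 3 stood below high-yielding cow 3, against the order of the class means. Their 3 highest Shweta Kapila values were in low-yielding cows 1 and 2 and high-yielding cow 3, the libraries with the largest totals. Over the alternatives other than single libraries left out, the difference ran from −0.88 to −0.31 for LARS1. For TARS1 it ran from −1.20 to −0.098 and for EIF4G3 from −1.19 to −0.074. The part of library size in these differences was not tested.

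On the other side, WARS2, the mitochondrial tryptophan enzyme, measured 18.9, 14.8 and 8.18 CPM at high and 9.07, 4.28 and 11.6 CPM at low yield. Its difference was 0.75 ± 0.39 (SE). EIF2B4, a subunit of the eIF2 exchange factor, and EIF4E2, a cap binder known as a repressor, each differed by 0.40, with SE of 0.21 and 0.22. EIF3K differed by 0.67 ± 0.38 (SE). None of these had an unadjusted p under 0.05.

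In counts, edgeR called 0 of 75 members and 0% of all genes for yield in Shweta Kapila cows, and DESeq2 called 0 members and 0.396% of all genes. The limma-voom fit with library weights called 19 members, which is 25.3% of the members and also 25.3% of all genes. At an unadjusted p under 0.05, edgeR found 3 members (4%), all lower at high yield, beside 6.97% of all genes in either direction and 2.92% lower. QARS1 and RARS2 were the members whose yield classes did not overlap, 2.67% of the members beside 7.21% of all genes. The 3 became 29 (38.7%) without low-yielding cow 3, where 31.8% of all genes were under 0.05. They became 11 (14.7%) without high-yielding cow 3, beside 18.8% of all genes, and 0 without low-yielding cow 1, beside 5.25%. Leaving out any 1 of the other Shweta Kapila cows left 1, as did leaving out Gir high-yielding cow 1 or any low-yielding Gir cow, with 3.64% to 6.25% of all genes under 0.05 in those fits.

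By class, 12 of 17 cytosolic synthetases were lower at high yield in Shweta Kapila cows, with a median log2 difference of −0.18, beside −0.024 over all genes. Within the multisynthetase complex, which gathers a set of cytosolic synthetases on shared scaffolds, 6 of 7 measured members were lower, with a median of −0.32. Of the mitochondrial synthetases, 6 of 15 were lower and the median was 0.081. The initiation factors were split, 22 higher and 21 lower, with a median of 0.00041. Leaving out 1 Shweta Kapila cow moved these medians. The cytosolic median was −0.082 without low-yielding cow 1 and −0.32 without low-yielding cow 3, and −0.11 without high-yielding cow 2, with 10 to 16 of 17 lower over all 6 cows. The mitochondrial median turned to −0.024 without low-yielding cow 1 and to −0.025 without low-yielding cow 2, with 9 and 8 of 15 lower, and was 0.17 without low-yielding cow 3. With the share of counts on a set of short identifiers as a covariate both signs changed: the cytosolic median was 0.022 and the mitochondrial one −0.14. Summed cytotoxic markers, 550 to 1514 CPM at high and 296 to 350 CPM at low yield, also separated the classes, and all 5 were higher at high yield at an unadjusted p under 0.05. B cell markers were lower in 9 of 9, 5 of them at an unadjusted p under 0.05, with a median log2 difference of −1.02. Their sum was 906, 921 and 790 CPM at high and 789, 1325 and 3199 CPM at low yield, so the classes overlapped. Low-yielding cow 3 held the highest sum. Among all genes 6.97% had an unadjusted p under 0.05 in edgeR in either direction, and 2.92% were lower at that p. T cell markers were higher in 11 of 15, 6 of them at that p, with a median of 0.66. The part of these markers in the result was not tested.

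In Gir cows the yield classes were close in the levels of the members. No member was called by edgeR, DESeq2 or limma-voom, and 0 members had an unadjusted p under 0.05 in edgeR, where 1.87% of all genes did. Between the classes 8 members did not overlap, 10.7% of them beside 10.2% of all genes. QARS1, EIF1B, EIF3D, EIF4A1 and EIF4E3 were higher at high yield (6.67% of members, beside 5.11% of all genes), and EIF5B, FARS2 and PARS2 were lower (4%, beside 5.05%). EIF4E3, an atypical cap binder, measured 68.1, 63.0 and 101 CPM at high and 50.2, 57.2 and 58.1 CPM at low yield, with a log2 difference of 0.49 ± 0.41 (SE). EIF5B, the GTPase that joins the subunits, measured 141, 159 and 149 CPM at high and 175, 185 and 189 CPM at low yield, with a difference of −0.29 ± 0.29 (SE). The cows of a class lay close together, yet each difference was about as large as its error in the fit that shares 1 spread over all 12 libraries. In a fit of the 6 Gir libraries alone, edgeR again called 0 members, and 2 (2.67%) had an unadjusted p under 0.05, beside 5.24% of all genes.

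EIF3D differed by 0.21 ± 0.19 (SE) in Gir cows, EIF1B, a start codon factor, by 0.21 ± 0.20 (SE), and the mitochondrial phenylalanine enzyme FARS2 by −0.25 ± 0.30 (SE). EIF4E, the main cap-binding factor, differed by −0.42 ± 0.43 (SE). The class medians were 0.030 for initiation factors, 0.041 for cytosolic and −0.017 for mitochondrial synthetases. All 6 measured monocyte markers were higher at high yield, 1 at an unadjusted p under 0.05 in edgeR, beside 1.87% of all genes. Their sums were 473 to 695 CPM at high and 274 to 457 CPM at low yield. For T cells 14 of 15 were lower, for cytotoxic cells 5 of 5 and for B cells 7 of 9. For neutrophils 6 of 8 were higher. None of these was at that p. The part of cell makeup was not tested.

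**Figure D4:**
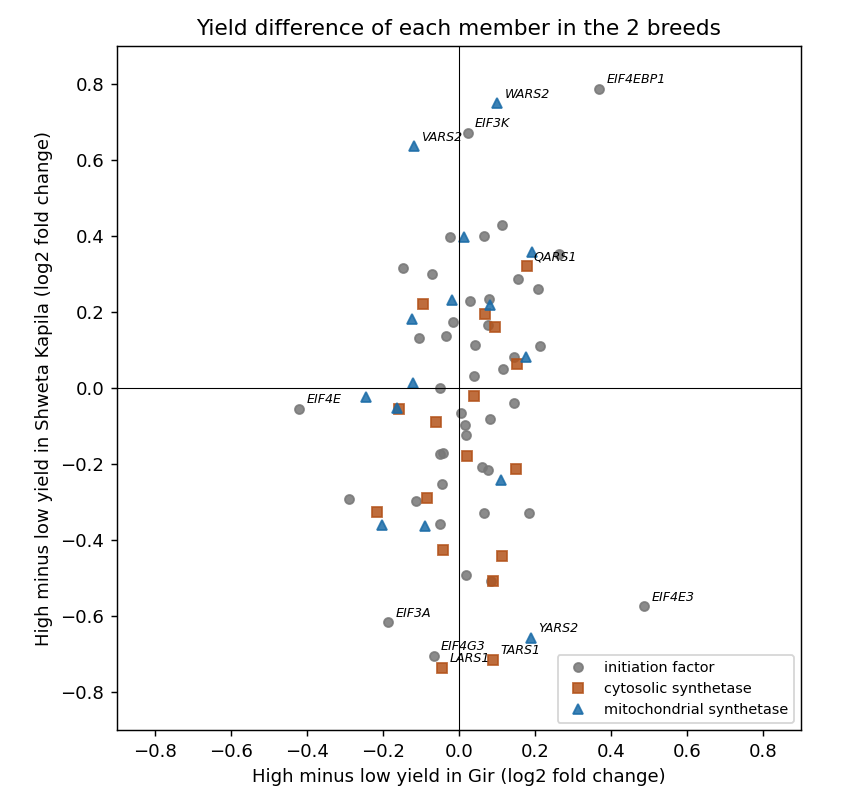
Log2 difference of high minus low yield in Gir cows (horizontal) and in Shweta Kapila cows (vertical) for each of the 75 members, with marker shape for class. The cloud is taller than it is wide: Shweta Kapila differences run from −0.735 for LARS1 to 0.79 for EIF4EBP1, and Gir differences from −0.42 for EIF4E to 0.49 for EIF4E3.

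With the breeds averaged, edgeR called no member for yield and 1 member (1.33%), LARS1, had an unadjusted p under 0.05, beside 4.13% of all genes. The log2 difference of LARS1 was −0.39 ± 0.18 (SE), with an unadjusted p of 0.0455 and an adjusted p of 0.874 in edgeR. QARS1, the glutamine enzyme of the multisynthetase complex, measured 226, 264 and 244 CPM at high and 219, 221 and 209 CPM at low yield in Gir cows. In Shweta Kapila cows it measured 322, 239 and 247 CPM at high and 217, 222 and 208 CPM at low yield. It was higher at high yield without overlap in each breed, by 0.25 ± 0.13 (SE) on the log2 scale, with an adjusted p of 0.874 in edgeR. Yield classes did not overlap for 10.2% of all genes in Gir and 7.21% in Shweta Kapila cows. The share of all genes without overlap in both breeds was not counted. EIF3A and EIF4G3 differed by −0.40 ± 0.24 and −0.39 ± 0.22 (SE). DESeq2 called 0 members, and the limma-voom fit 6 (8%, beside 8.45% of all genes). Without low-yielding Shweta Kapila cow 3 the count at an unadjusted p under 0.05 was 18 (24%, beside 20.7% of all genes), and without high-yielding cow 3 it was 5 (6.67%, beside 9.86%). It was 1 without high-yielding Shweta Kapila cow 2, beside 576 of 15765 genes. It was 0 without any 1 of the other 9 cows, beside 410 of 15780 to 675 of 15747 genes.

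Whether the difference in mRNA level between yield classes was itself different in the 2 breeds was tested directly. No member was called by edgeR and 0 had an unadjusted p under 0.05, beside 3.81% of all genes, while DESeq2 called 0 members and limma-voom 6 (8%, beside 8.59% of all genes). Among the members of lowest p, the yield difference in Gir minus that in Shweta Kapila cows was 0.69 ± 0.35 (SE) for LARS1, 1.06 ± 0.58 for EIF4E3 and 0.80 ± 0.44 for TARS1. EIF4EBP2, a close relative of EIF4EBP1, gave −0.46 ± 0.28, EIF4E2 −0.42 ± 0.31 and EIF3K −0.65 ± 0.54. Without low-yielding Shweta Kapila cow 3 the count at an unadjusted p under 0.05 was 13 (17.3%, beside 19.1% of all genes), and without high-yielding cow 3 it was 5 (6.67%, beside 9.69%). The values of EIF4E3 and EIF3K changed sign, to −0.090 and 0.24, with the short-identifier share as a covariate. A test for any difference among the 4 groups called no member in edgeR or DESeq2 and 18 in limma-voom (24%, beside 22.1% of all genes). In edgeR 3 members (4%), WARS1, EIF3M and EIF2S2, had an unadjusted p under 0.05, beside 6.31% of all genes, and LARS1 and EIF2A came next. Without low-yielding Shweta Kapila cow 3 those 3 became 19 (25.3%, beside 28.2% of all genes), and without high-yielding cow 3 they became 5 (6.67%, beside 10.7%). They became 1 without any 1 of the low-yielding Gir cows or high-yielding Shweta Kapila cow 2, beside 726 of 15765 to 859 of 15747 genes.

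The cap-binding factor and its repressor were set side by side in each cow. EIF4E measured 34.1, 36.4 and 22.7 CPM in high-yielding and 35.8, 37.2 and 51.8 CPM in low-yielding Gir cows. In Shweta Kapila cows it measured 23.7, 74.7 and 53.6 CPM at high and 82.8, 44.6 and 30.3 CPM at low yield. Its ratio to EIF4EBP1 was 0.548 to 2.18 in Gir cows. In Shweta Kapila cows the ratio was 0.335, 3.47 and 4.01 at high and 8.83, 2.97 and 0.826 at low yield, so the yield classes overlapped. EIF4EBP2 varied less, from 201 to 312 CPM over the 12 cows. Of the eIF4A helicases, EIF4A1 lay between 406 and 821 CPM and EIF4A2 between 192 and 535 CPM, though how reads shared by such close paralogs were divided is not known. EIF4A3, which belongs to the exon junction complex, kept between 115 and 170 CPM. The eIF4A cofactor EIF4B lay between 774 and 1242 CPM, and the scaffold EIF4G1 between 102 and 181 CPM.

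Among late factors, EIF5A, which helps ribosomes past stalling sequences, lay between 261 and 432 CPM, and its paralog EIF5A2 between 15.003 and 29.5 CPM. EIF6, which keeps the large subunit from joining early, lay between 53.8 and 80.6 CPM in Gir and between 30.2 and 96.4 CPM in Shweta Kapila cows. The eIF3 subunits EIF3F and EIF3H ranged from 249 to 568 CPM and from 199 to 345 CPM. EIF2B5, the catalytic eIF2B subunit, kept between 76.6 and 111 CPM.

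The mean log2 CPM of the cytosolic synthetases minus that of the mitochondrial ones was nearly constant in Gir cows. It was 2.88 ± 0.035 (SD, n = 3) at high yield, with 2.88, 2.85 and 2.92, and 2.85 ± 0.046 (SD, n = 3) at low yield, with 2.80, 2.86 and 2.90. In Shweta Kapila cows it was 2.97 ± 0.36 (SD, n = 3) at high yield, with 3.03, 2.59 and 3.30. At low yield it was 3.30 ± 0.42 (SD, n = 3), with 3.56, 3.53 and 2.81. The yield classes overlapped in both breeds, and both the lowest and the highest cow were Shweta Kapila. The level of the difference holds transcript length, so only its change between cows can be read. The wide gaps came from both sides in low-yielding cows 1 and 2. In high-yielding cow 3 the gap came from the mitochondrial side, with a cytosolic mean of 6.945 log2 CPM. The mitochondrial mean was 3.53, 3.55 and 3.65 log2 CPM in low-yielding cows 1 and 2 and high-yielding cow 3. It was 3.91 to 4.09 in the other 9 libraries. The cytosolic mean was 7.10 and 7.07 in low-yielding cows 1 and 2 and 6.58 to 6.98 in the other 10 libraries.

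The same 3 libraries held the largest totals, over 22 M counts, and the highest shares of counts on 37 identifiers that are shorter than the rest. That share was 9.00% in high-yielding cow 3, 13.1% in low-yielding cow 1 and 11.7% in low-yielding cow 2, and 4.54% to 8.70% in the other 9 libraries. The part of these library properties in the gap was not tested.

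**Figure D5:**
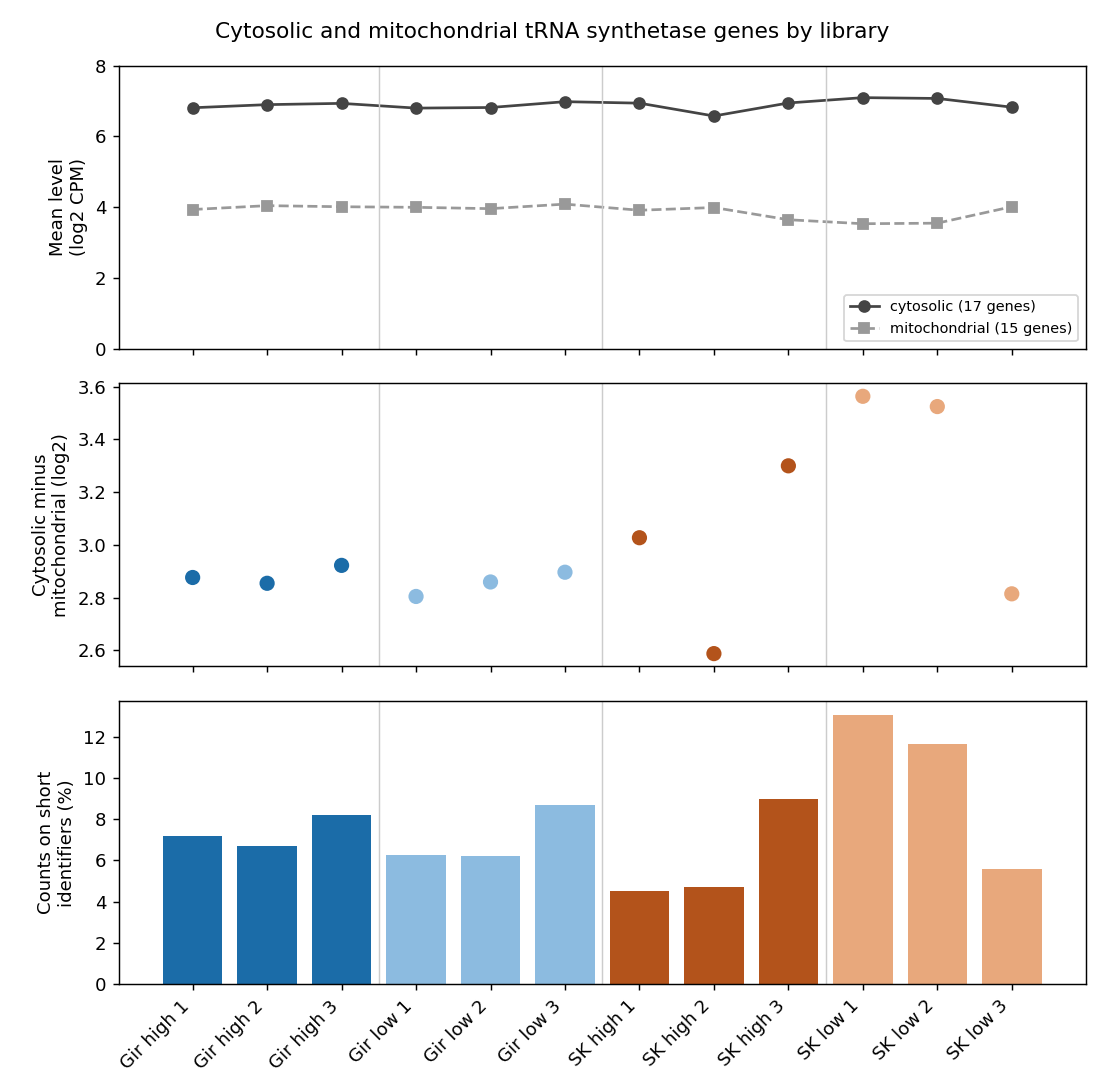
Top, mean log2 CPM of 17 cytosolic and 15 mitochondrial synthetases in each cow. Middle, their difference, and bottom, the share of counts on short identifiers. Gir cows stay between 2.80 and 2.92 in the middle panel, whereas Shweta Kapila cows run from 2.59 to 3.56.

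The gap was seen for most amino acids. Of 13 amino acids with both enzymes measured, the cytosolic to mitochondrial ratio was among the 3 widest of the 12 cows in 11 pairs for low-yielding Shweta Kapila cow 1. The same held in 10 pairs for low-yielding cow 2 and 8 for high-yielding cow 3, but in at most 2 pairs for any other cow. The tyrosine pair went the other way. The log2 ratio of YARS1 to YARS2 was −0.26 in low-yielding cow 1 and 2.17 in high-yielding cow 1. YARS2 reached 64.0 CPM in that low-yielding cow and was 12.7 to 37.6 CPM in the others. The asparagine pair did not follow either. The log2 ratio of NARS1 to NARS2 was 3.37 in low-yielding Shweta Kapila cow 1, and its widest values, 3.90, 3.88 and 3.85, were in Gir cows. In the alanine pair AARS1 lay between 65.6 and 138 CPM, and AARS2 between 7.25 and 16.4 CPM. Its log2 ratio spanned 1.498 over the 12 cows, more than in 7 of the other 12 pairs. It was widest in low-yielding Shweta Kapila cows 1 and 2 and high-yielding cow 3. The dual enzymes GARS1 and KARS1 lay between 66.0 and 106 CPM and between 325 and 509 CPM.

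Neighbouring genes of the pathway were not called either in edgeR. Of 6 eIF2 kinases and phosphatase regulators, 5 were lower at high yield in Shweta Kapila cows, 1 of them at an unadjusted p under 0.05. That gene was EIF2AK2, the kinase PKR, which double-stranded RNA activates and interferon induces. It measured 25.5, 34.6 and 58.3 CPM at high and 179, 90.1 and 88.1 CPM at low yield, without overlap. The log2 difference was −1.59 ± 0.37 (SE), with an unadjusted p of 0.00106 and an adjusted p of 0.573 in edgeR. In Gir cows it was −0.19 ± 0.37 (SE). For yield in Shweta Kapila cows the classes did not overlap for 7.21% of all genes. An unadjusted p under 0.05 in edgeR was found for 6.97% of all genes in either direction and for 2.92% lower at high yield.

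Of 21 measured genes of the ATF4 program, which eIF2 phosphorylation is known to switch on, 12 were higher and 9 lower at high yield in each breed, with medians of 0.024 in Gir and 0.019 in Shweta Kapila cows. DDIT4, an inhibitor of mTORC1, differed by 1.20 ± 0.40 (SE) in Shweta Kapila cows, and ATF4 itself by 0.21 ± 0.20 (SE). PDCD4, an inhibitor of eIF4A, differed by −0.79 ± 0.26 (SE) in the same cows. Of 11 measured termination, recycling and poly(A)-binding genes 10 were lower at high yield in Shweta Kapila cows, none at an unadjusted p under 0.05. Of 7 elongation factors 6 were higher. For 1 of them, EEF1G, with a difference of 0.62 ± 0.25 (SE), the unadjusted p in edgeR was under 0.05. Beside it stood 6.97% of all genes in either direction. Mitochondrial translation factors were split, 7 higher and 7 lower, and MTIF3, a mitochondrial initiation factor, differed by −0.60 ± 0.23 (SE).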

How the data were processed

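The authors deposited 1 table of expected counts (estimated counts of reads per gene identifier, not normalised) for 12 libraries, and 57.0% of its values are not whole. Which counter, aligner and genome build made it is not given in the sources used here. Trimmomatic and FastQC were used, per the submitters' processing notes. Libraries were strand-specific and ribosomal RNA was removed, per the labels' protocols. Identifiers were matched to symbols with a RefSeq gene table, of which 86.8% had a match; with no genome, transcript lengths or sequences used here, no coordinates are given and levels are not compared between genes. The planned naming of members by level per length was therefore not done, and the planned correlation within synthetase pairs is not reported here.

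Counts were rounded and fitted in edgeR 4.0.16 (R 4.3.3) with TMM scaling, filterByExpr (count minimum 10, total 15), a mean for each of 4 groups and robust quasi-likelihood F tests. P-values were adjusted by Benjamini-Hochberg over 15421 genes, with a threshold of 0.05. SE is the absolute log2 difference divided by the square root of F. CPM values use TMM-scaled totals, and log2 CPM a prior count of 2. A count of 10 is 0.704 CPM in the smallest and 0.368 CPM in the largest library. Yield was taken as high minus low, and breed as Gir minus Shweta Kapila. The labels name separate cows. Replicate counts differed beyond sampling noise in every group, with chi-square per degree of freedom from 32.5 to 364. The fit was tested on simulated data for yield in Shweta Kapila cows with 15206 genes: it called 5.05% of 99 genes changed 2-fold, 53% of 100 changed 4-fold and 0.0133% of the unchanged. The simulation gave each gene the same spread in all 4 groups, whereas the measured spread was wider in Shweta Kapila than in Gir cows. How these rates change with unequal spread was not tested.

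Members named were the 3 of lowest p on each side of each comparison, the 5 of lowest p over the 4 groups, the 3 steadiest and 3 most variable, and members fixed for their textbook role. Others named in the report (such as HARS2, YARS2, EIF3J and EIF1AX) were chosen after their values were seen. Members, lists and tests were chosen with earlier results of these data known. Symbols EIF3C, EIF3L and EIF4EBP3 had no match in the name table and were not analysed here. Alternatives covered scaling, filtering, DESeq2 1.42.0, limma-voom with library weights (limma 3.58.1), each library left out, libraries over 22 M counts left out, thinning to the smallest total, the short-identifier share as a covariate, a replicate block and, added after seeing the data, each breed alone.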

Additional observations from a re-analysis of the deposited data

How the results depend on the processing

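The number of members called was 0 in all 6 edgeR comparisons. With limma-voom and library weights it was 19 for yield in Shweta Kapila cows (25.3%, beside 25.3% of all genes) and 6 over both breeds (8%, beside 8.45%). It was 6 for yield by breed (8%, beside 8.59%), 13 for breed (17.3%, beside 16.8%) and 18 over the 4 groups (24%, beside 22.1%). For breed it was 1 with DESeq2 (1.33%, beside 1.3%), and it ranged from 0 to 2 when single libraries were left out, 2 being the value without low-yielding Shweta Kapila cow 3. The labels give no pairing of same-numbered cows across groups. Their deviations of log2 CPM from the mean of their own group correlated at −0.56 to 0.34, over 0.1 in 3 of 18 pairs. Cows of different number were not compared, so these values do not decide whether the numbers pair the cows. With a replicate block 0 members were called in every comparison. With that block, members at an unadjusted p under 0.05 fell from 3 to 1 for yield in Shweta Kapila cows and from 1 to 0 over both breeds. The count over all 15421 genes fell as well, from 1075 to 770 and from 637 to 501.

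Median log2 differences of the classes were small and moved with the setting. For initiation factors they were −0.15 for yield in Shweta Kapila cows and 0.21 for yield by breed with limma-voom. Without libraries over 22 M counts they were 0.17 for yield in Shweta Kapila cows, 0.12 over both breeds, −0.16 for yield by breed and −0.0004 for breed. With the short-identifier share they were 0.099 in Shweta Kapila cows and −0.081 for yield by breed. With single libraries left out they ranged from −0.11 to 0.063 for yield in Shweta Kapila cows, from −0.038 to 0.13 by breed and from −0.15 to −0.016 for breed. For cytosolic synthetases the yield difference in Shweta Kapila cows was −0.0083 without the large libraries and 0.022 with the share, and yield by breed was 0.38 with limma-voom and 0.023 to 0.28 with single libraries left out. For mitochondrial synthetases the yield difference in Shweta Kapila cows was 0.30 with limma-voom, −0.20 without the large libraries and −0.14 with the share. By breed it was 0.17 without the large libraries, 0.18 with the share and −0.19 to 0.034 with single libraries left out, and the breed difference was −0.056 without the large libraries. With the share, yield by breed was −0.090 for EIF4E3 and 0.24 for EIF3K. Without GARS1 and KARS1 the cytosolic minus mitochondrial difference was 2.82 in high-yielding and 2.80 in low-yielding Gir cows. The causes were not tested.

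Precision is set by 3 cows a group. In the simulation, which gave all 4 groups the same spread, most 2-fold changes were missed. A p above the threshold therefore does not show that members are alike.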
